A study of Mus musculus with 2 samples.

Results

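Astrocytes were the 1432 barcodes, of 24541 kept and 27561 deposited, that passed a marker rule in 2 single-barcode RNA libraries of mouse brain. The vehicle library held 797 of them among 13465 kept barcodes, and the fluconazole library 635 among 11076. A barcode is a droplet label that stands for a cell or a nucleus, and a unique molecular identifier (UMI) stands for a counted transcript. A barcode was kept when it had at least 500 genes and at most 5% of its UMIs from mitochondrial genes. It counted as an astrocyte when at least 4 of the 8 genes Aqp4, Gja1, Slc1a3, Slc1a2, Aldh1l1, Gjb6, Slc4a4 and Gpc5 had a UMI, with at most 1 UMI summed over Slc17a7, Pecam1, Cx3cr1 and Mog, at most 1 over Pdgfra and Cspg4, and at most 2 over Gad1 and Gad2.

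All mice carried the genotype labelled Shank3-/-, so both groups lack the intact gene and no wild-type group was analysed here. Shank3 protein is a postsynaptic scaffold of glutamatergic synapses. One group was given vehicle (labelled MOCK) and the other fluconazole in the drinking water for 2 weeks, after which the prefrontal cortex was taken according to the design text, while the sample labels say brain. Fluconazole is an azole antifungal that acts on the fungal form of sterol demethylase, whose mammalian counterpart is Cyp51. The study's title ties the drug to lipid rafts and to the IGF1 receptor. There is 1 library per treatment, and the number, sex and age of the mice behind it and the deleted part of Shank3 are not given in the sources used here. Shank3 had 82 and 45 UMIs in the vehicle and fluconazole astrocytes. Both groups carry the same label, so these counts check nothing between them.

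Astrocytes clear glutamate and GABA from synapses, buffer potassium through channels and pumps, move water through aquaporin 4 at their vessel-facing endfeet, and are joined to each other by connexins. They store glycogen, export lactate, make most of the cholesterol of the adult brain and package it with apolipoprotein E for neurons. They also express the glucocorticoid receptor, which moves to the nucleus on binding the hormone and switches on target genes through palindromic elements in DNA.

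No test between treatments was possible with 1 library each. Each comparison is the ratio, fluconazole over vehicle and on the log2 scale, of CPM, the UMIs of a gene over all UMIs of the same barcodes, scaled to the usual total, and the interval beside it is an exact 95% interval for counting error only, without differences between mice, dissections or barcodes. The kept barcodes had a median of 4422 UMIs with vehicle and 5410.5 UMIs with fluconazole, and astrocyte barcodes 2516 and 2904 UMIs, with 2858005 and 2468225 UMIs in all. The libraries shared 45 barcode sequences, of which 8 were an astrocyte in either library and 0 in both. The series describes a mixture of cells and nuclei, whereas its extraction protocol covers nuclei only. In a summed profile, fewer cells of a kind and less RNA per cell cannot be told apart.

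The genes of the rule were concentrated in these barcodes by construction, and their levels are a description. Their summed level was 14403 CPM in vehicle and 17665 CPM in fluconazole astrocytes, against 667 and 741 CPM in all other kept barcodes. At the threshold, 306 vehicle and 202 fluconazole barcodes had exactly 4 of the 8 genes, and 358 and 241 barcodes that met the other conditions had exactly 3 and stayed outside. The 16 astrocyte genes that the rule did not use summed to 2247 and 2630 CPM just inside the threshold and to 633 and 682 CPM just outside it. In barcodes with at least 6 of the 8 genes they summed to 11694 and 12501 CPM. Over all astrocyte barcodes the 16 genes, among them the glycolytic enzyme Aldoc, the orphan receptor Gpr37l1 and the transcription factor Sox9, summed to 6327 and 7938 CPM, against 410 and 477 CPM elsewhere.

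The label held for most but not all of the barcodes. Clustering the 1432 barcodes without the rule's genes gave 10 sub-clusters, numbered here and not named as types. Sub-clusters 1 (330 vehicle and 309 fluconazole barcodes), 2 (87 and 61) and 5 (147 and 134) had astrocyte genes and no leading genes of another cell type apart from haemoglobin in sub-cluster 1. They held 1068 barcodes together, 564 and 504. The other 7 carried genes of other cell types or were led mostly by genes outside the astrocyte lists, and were kept apart after the data were seen. The second trait also holds for sub-clusters 1 and 2, so it does not separate the groups. Sub-clusters 1 and 2 had 15 and 13 of the 16 unused astrocyte genes at least 2-fold above the barcodes outside. Sub-cluster 3 (71 and 31) was led by genes of glutamatergic neurons and had only 2 of the 16 unused astrocyte genes at least 2-fold above the barcodes outside, at a median of 9091 and 9675 UMIs per barcode. Sub-cluster 4 (33 and 17) had endothelial genes at 5684 summed CPM, sub-cluster 6 (39 and 20) microglial genes at 2810 and mural genes at 2403 summed CPM, and sub-cluster 8 (28 and 23) fibroblast genes at 1703 summed CPM. Sub-cluster 7 (34 and 16) had all 16 of the 16 unused astrocyte genes, was led by Slc47a1, Fabp7, Gfap and Slc26a7, and held blood genes at 1726 and neural stem genes at 827 summed CPM. Sub-cluster 9 (18 and 18) held genes of inhibitory or spiny neurons, and sub-cluster 10 (10 and 6) oligodendrocyte genes at 2174 summed CPM. The heat map of marker lists shows these values.

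**Figure D1:**
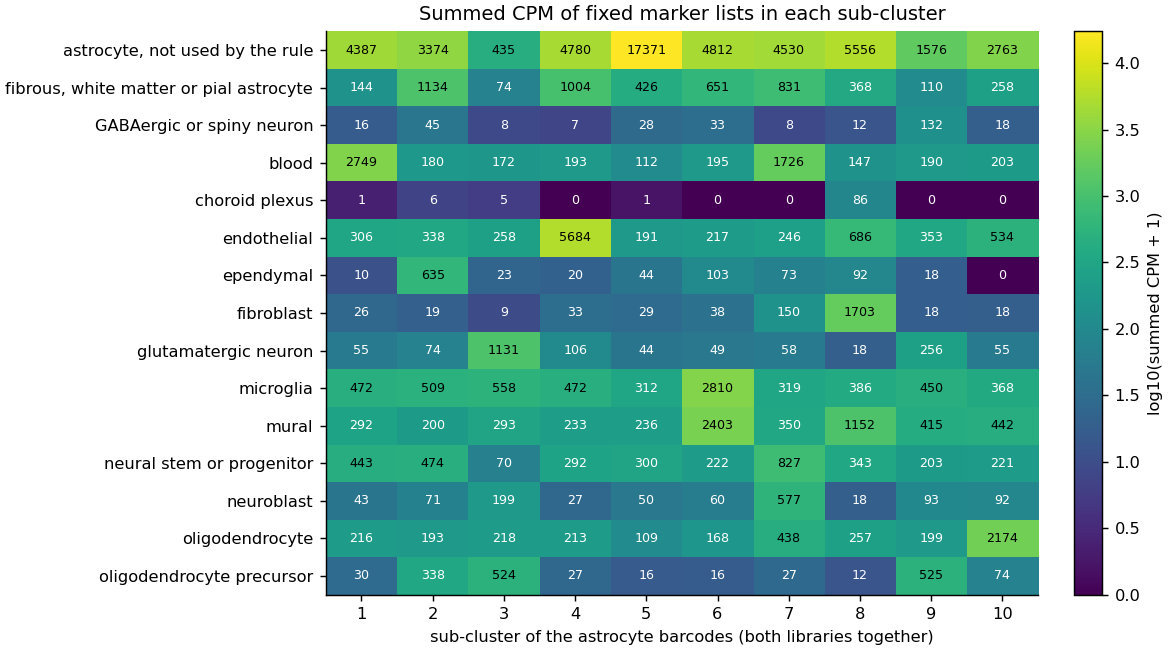
Summed CPM of 15 fixed marker lists (vertical axis) in the 10 sub-clusters of the astrocyte barcodes (horizontal axis), both libraries together, with the genes of the rule left out. Colour is log10 of the summed CPM plus 1 and each cell prints the summed CPM; the unused astrocyte genes reach 17371 CPM in sub-cluster 5 and 435 CPM in sub-cluster 3.

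Sub-clusters 1 and 5 differed in depth and in mitochondrial share. Sub-cluster 1 had a median of 0.44% and 0.45% mitochondrial UMIs and 1796 and 2259 UMIs per barcode, in the vehicle and the fluconazole library. Sub-cluster 5 had 2.6% and 2.52% mitochondrial UMIs, 4356 and 5635.5 UMIs per barcode and all 16 of the unused astrocyte genes. Apoe, the lipid carrier, stood at 12885 and 11761 CPM there and at 694 and 707 CPM in sub-cluster 1. Mt1, a zinc- and copper-binding metallothionein, stood at 4539.6 and 4979 CPM against 206 and 235 CPM. By contrast Slc1a2, the main glutamate transporter, was close between them, at 7513 and 7582 CPM against 7496 and 7465 CPM, and Gpc5, a glypican with a long intron-rich gene, stood at 7218 and 7588 CPM against 11322 and 11894 CPM.

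Sub-cluster 2 had 4 of the 6 markers of fibrous or pial astrocytes at least 2-fold above the barcodes outside. The 6 genes summed to 1220.2 CPM with vehicle and 1018 CPM with fluconazole. Vim stood at 151 and 53.2 CPM, below the 211 and 231 CPM outside. Id3 stood at 151 and 106 CPM, below the 289 and 295 CPM outside. The same list summed to 852 and 1315 CPM in sub-cluster 4 and to 903 and 690 CPM in sub-cluster 7. Sub-cluster 2 also held ependymal markers, at 1091.5 summed CPM with vehicle and 15.2 CPM with fluconazole. A single vehicle barcode of 21458 UMIs carried 191 of the 195 ependymal UMIs, and without it the vehicle level was 25.4 CPM. Myoc, which marks astrocytes of the brain surface, stood at 453 and 365 CPM there, against 6.05 and 1.23 CPM in sub-cluster 1. Gfap, the intermediate filament of white matter and surface astrocytes, stood at 185 and 129 CPM in sub-cluster 2, 13.6 and 6.15 CPM in sub-cluster 1 and 23.4 and 33.1 CPM in sub-cluster 5. Tnc, a matrix glycoprotein, stood at 218 and 266 CPM, against 28.7 and 29.5 CPM in sub-cluster 1. The clusters were built from the same barcodes, so these levels describe sub-cluster 2 and test nothing.

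**Figure D2:**
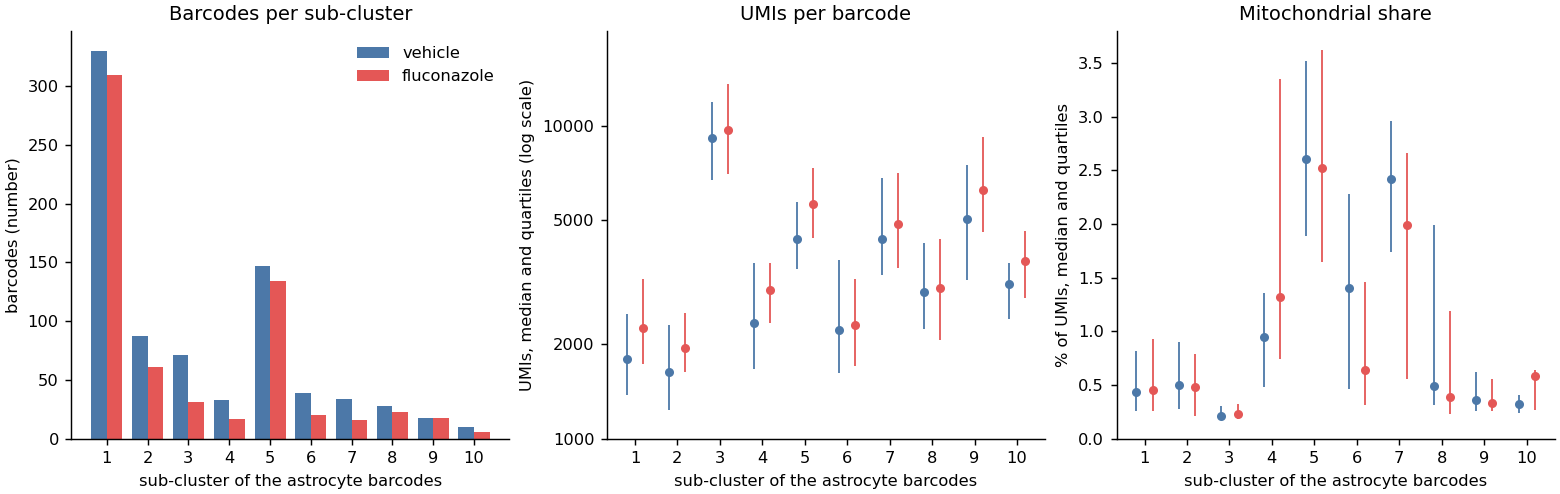
Barcodes per sub-cluster (left, number), UMIs per barcode (middle, log scale) and mitochondrial share of UMIs (right, percent) for vehicle (blue) and fluconazole (red); points are medians over barcodes and lines run between the quartiles. Sub-cluster 5 stands at 2.6% and 2.52% mitochondrial UMIs and sub-cluster 1 at 0.44% and 0.45%.

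The share of astrocytes among kept barcodes was similar in the libraries. It was 5.92% in the vehicle library (exact Clopper-Pearson interval 5.53 to 6.33) and 5.73% in the fluconazole library (5.31 to 6.18). Sub-clusters 1, 2 and 5 made up 4.19% (3.86 to 4.54) and 4.55% (4.17 to 4.95). Both pairs of intervals overlap. The make-up of the astrocyte barcodes differed more: sub-clusters 1, 2 and 5 held 53.3% of astrocyte UMIs with vehicle and 70.1% with fluconazole, and sub-cluster 3, with its neuronal genes, 25% and 12.9%. For this reason each value below is given for all 1432 barcodes or for sub-clusters 1, 2 and 5, as named, and the part of the make-up in a ratio over all 1432 barcodes was not tested.

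Over all astrocyte barcodes 8343 genes had at least 100 UMIs. Of these, 112 (1.34%) stood at least 1.5-fold higher and 487 (5.84%) at least 1.5-fold lower in the fluconazole library. In sub-clusters 1, 2 and 5 alone, 49 of 5878 genes (0.834%) stood higher and 136 (2.31%) lower by that amount. Several of the lowest genes over all barcodes are typical of neurons. Sphkap, an anchor protein of neurons, stood at 85.4 and 24.3 CPM over all barcodes and 6.57 and 5.20 CPM in sub-clusters 1, 2 and 5. Genes are named below by the interval bound nearest 0, the 12 farthest from 0 on each side. Of the 12 higher genes over all barcodes, 4 were also among the 12 of sub-clusters 1, 2 and 5, and likewise 4 of the 12 lower genes.

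Over all 1432 barcodes the named higher genes included metabolic and synaptic genes. Ppp1r3g, which targets a phosphatase to glycogen, stood at 37.1 CPM in vehicle and 65.2 CPM in fluconazole barcodes, with a log2 ratio of 0.81 (0.45 to 1.18), against 0.46 (0.08 to 0.84) in sub-clusters 1, 2 and 5. Unc13c, a priming protein of the Munc13 family, stood at 276 and 410.0 CPM, a ratio of 0.57 (0.43 to 0.71), against 0.33 (0.18 to 0.49). Trpm3, a cation channel, stood at 1654 and 2266 CPM, a ratio of 0.45 (0.40 to 0.51), and at 0.02 (-0.06 to 0.10) in sub-clusters 1, 2 and 5, where the libraries were alike. Beside Lama3, Aldoc, Luzp2 and Slc25a33, described below, the others were Ttc39c, Eya1, Plcd4, Chst2 and Zkscan3, with ratios from 0.60 to 0.81. On the lower side Pdzrn3, a ubiquitin ligase, stood at 267 and 192 CPM, a ratio of -0.48 (-0.64 to -0.31), against -0.14 (-0.46 to 0.18) in sub-clusters 1, 2 and 5. S100a6, a calcium-binding protein, stood at 65.8 and 46.2 CPM, a ratio of -0.51 (-0.86 to -0.17), against -0.50 (-0.92 to -0.08) in sub-clusters 1, 2 and 5 and -0.56 (-0.65 to -0.48) in the other kept barcodes. Cpne4, a copine of neurons, had 271 and 80 UMIs, a ratio of -1.55 (-1.93 to -1.18), and in sub-clusters 1, 2 and 5 12 and 19 UMIs, a ratio of 0.48 (-0.64 to 1.65). The plot of list medians sets the populations side by side.

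**Figure D3:**
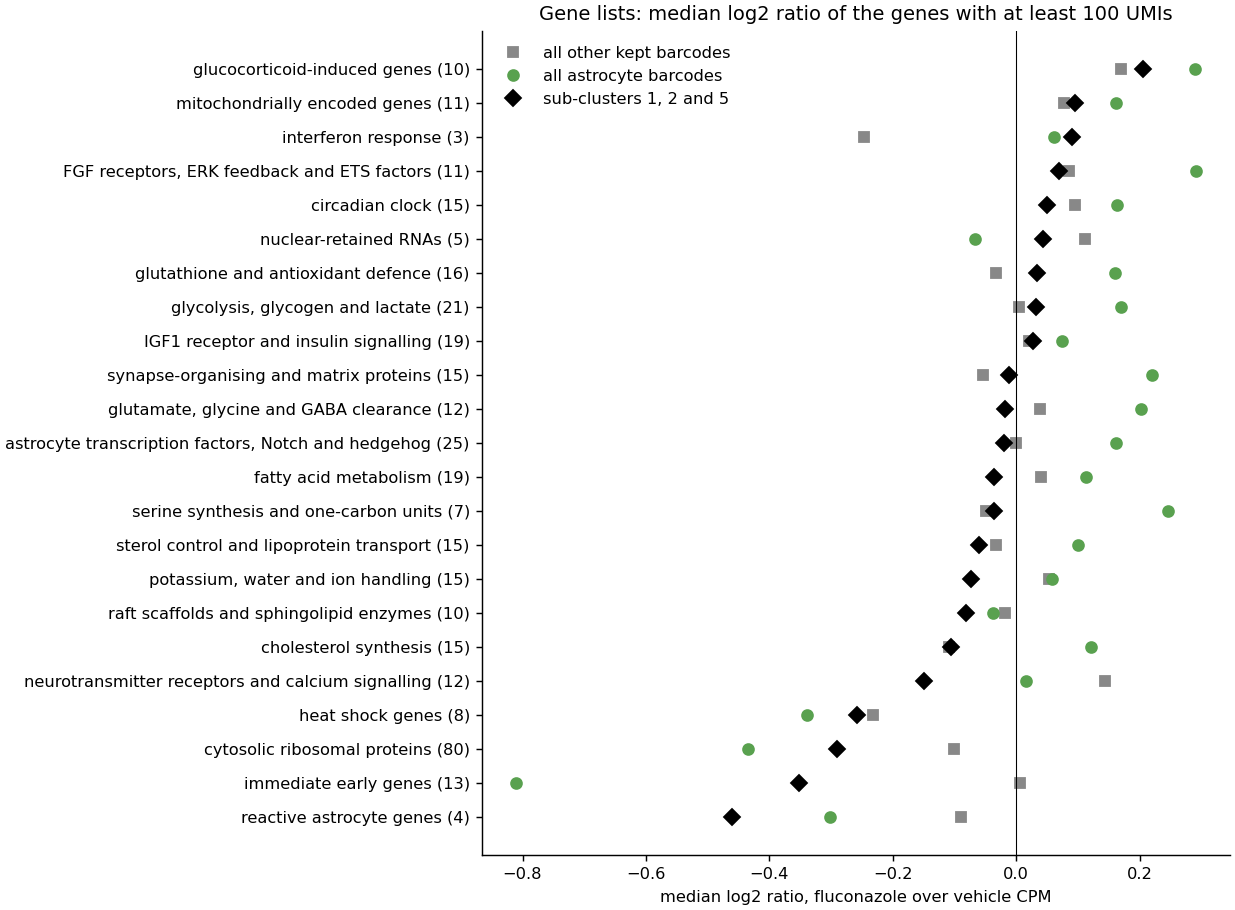
Median log2 ratio of fluconazole over vehicle CPM (horizontal axis) for 23 gene lists (vertical axis, with the number of genes at 100 UMIs or more in sub-clusters 1, 2 and 5 in brackets), for all astrocyte barcodes (green circles), sub-clusters 1, 2 and 5 (black diamonds) and all other kept barcodes (grey squares). Immediate early genes stand at -0.81 over all astrocyte barcodes and at -0.35 in sub-clusters 1, 2 and 5, and glucocorticoid-induced genes at 0.29 and 0.21.

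Genes of transmitter clearance had mostly small ratios. In sub-clusters 1, 2 and 5, 3 of 10 genes compared of glutamate, glycine and GABA clearance were higher by any amount in the fluconazole library, where 47% of all genes compared were, and 0 passed 1.5-fold in either direction. The count leaves out Slc1a2 and Slc1a3, which the rule used and whose values are a description. Slc1a2 stood at 7225 CPM in vehicle and 7342 CPM in fluconazole barcodes, with a log2 ratio of 0.02 (-0.01 to 0.06), and Slc1a3, the other glial glutamate transporter, at 2830.2 and 2976 CPM, a ratio of 0.07 (0.01 to 0.13). Glul, which turns glutamate into glutamine, stood at 1103 and 1146 CPM, a ratio of 0.06 (-0.04 to 0.15). Slc6a11, the GABA transporter GAT3 of astrocytes, had 447 and 334 CPM, a ratio of -0.42 (-0.58 to -0.26). In sub-cluster 5 Slc6a11 stood at 667 CPM in vehicle and 383 CPM in fluconazole barcodes, a ratio of -0.80 (-1.01 to -0.59), and in sub-cluster 1 at 309.9 and 313 CPM, a ratio of 0.02 (-0.25 to 0.29). The top barcode held 11% and 4.32% of the Slc6a11 UMIs of sub-cluster 5 in the respective libraries.

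Channels, transporters and junctions showed small ratios. In sub-clusters 1, 2 and 5, 4 of 11 genes compared of potassium, water and ion handling, without the 4 genes of the rule, were higher (47% of all genes compared), with a median of -0.012, and 0 passed 1.5-fold. Kcnj10, the inward rectifier Kir4.1, stood at 135 and 111 CPM, a ratio of -0.28 (-0.57 to 0.01). Mlc1, an endfoot membrane protein that regulates volume, stood at 181 and 132 CPM, a ratio of -0.46 (-0.72 to -0.20), and its partner Hepacam at 425 and 477 CPM, a ratio of 0.17 (0.02 to 0.32). The channels and transporters of the rule itself are described without a reading: Aqp4 had 406 and 368 CPM, Gja1 649 and 586 CPM, Gjb6 229 and 247 CPM, Slc4a4 1575 and 1467 CPM and Aldh1l1 145 and 142 CPM.

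Most cholesterol synthesis genes stood at lower CPM in sub-cluster 5, and the 5 with enough UMIs in sub-cluster 1 at higher CPM. The pathway runs from acetyl-CoA through mevalonate, squalene and lanosterol, and Cyp51 is the demethylase that acts on lanosterol. In sub-cluster 5, 10 of 12 genes compared were lower in the fluconazole library, where 52.8% of all genes compared were, with a median log2 ratio of -0.42. In sub-cluster 1, 5 of 5 genes compared were higher, where 49.9% of all genes compared were, with a median of 0.25. The other kept barcodes had 19 of 21 genes lower (49.8% of all genes compared there), with a median of -0.11. Over sub-clusters 1, 2 and 5 the counts were 11 of 15 lower (53% of all genes compared) with a median of -0.11, and over all astrocyte barcodes 10 of 16 higher (51.8% of all genes compared) with a median of 0.12. With barcodes thinned to 1000 UMIs the detection in sub-cluster 1 did not follow the CPM: Cyp51 was detected in 35 vehicle barcodes out of 310 and in 29 fluconazole barcodes out of 293, and Msmo1 in 45 and 32 of these, so no order is read for sub-cluster 1. The direction depends on the barcodes included. The difference between sub-clusters 1 and 5 could not be tested.

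The enzymes are given for sub-cluster 5, with sub-cluster 1 beside it for Mvd and Cyp51. Mvd, which decarboxylates mevalonate diphosphate, stood at 89.4 CPM in vehicle and 36.9 CPM in fluconazole barcodes in sub-cluster 5, with 61 and 29 UMIs in 41 and 24 barcodes, a log2 ratio of -1.28 (-1.97 to -0.62). It stood at 13.6 and 20.9 CPM in sub-cluster 1, on 9 and 17 UMIs, and was under the minimum of 100 UMIs in both. Of the genes compared, 2 were at least 1.5-fold lower in sub-cluster 5, where 2.24% of all genes compared were. Fdps, the farnesyl diphosphate synthase and 1 of these, stood at 152 and 101 CPM there, a ratio of -0.60 (-1.04 to -0.16). Cyp51 stood at 170.0 CPM in vehicle and 114 CPM in fluconazole barcodes in sub-cluster 5, a ratio of -0.57 (-0.98 to -0.16), and at 90.7 and 122 CPM in sub-cluster 1, a ratio of 0.42 (-0.05 to 0.91). Idi1, the isomerase that feeds Fdps, stood at 170.0 and 118 CPM, a ratio of -0.52 (-0.93 to -0.12), and Sqle, the squalene epoxidase, at 155 and 112 CPM, a ratio of -0.47 (-0.90 to -0.05). Hmgcs1, an early synthase of the pathway, stood at 271 and 225 CPM in sub-cluster 5, with a ratio of -0.27 (-0.57 to 0.04) whose interval includes 0. Msmo1, which acts after Cyp51, went the other way at 869 and 918 CPM, a ratio of 0.08 (-0.08 to 0.24). These enzymes of sub-cluster 5 were singled out after their values were seen.

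Transcription of this pathway is driven by SREBP2 through sterol regulatory elements. The letters TCACNCCAC were searched on both strands of the 250 bases before the annotated start of each gene in RefSeq (GRCm38.p6). They occurred in 346 of 32851 promoters (1.05%) and in 1 of the 16 matched of 21 listed cholesterol genes, Hmgcs1. Its window, chr13:119690101-119690350 on the plus strand, is shown because Hmgcs1 acts early in the pathway and was the 1 match, with the matching letters in capitals from 137 to 129 bases before the start.
Hmgcs1: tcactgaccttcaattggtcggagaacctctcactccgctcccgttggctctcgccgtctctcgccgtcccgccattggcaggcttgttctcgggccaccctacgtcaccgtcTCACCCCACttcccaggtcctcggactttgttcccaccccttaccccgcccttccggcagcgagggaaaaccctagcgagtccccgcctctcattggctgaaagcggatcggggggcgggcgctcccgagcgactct
A match of letters is a description and not a bound site.

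Of 15 genes compared that sense or move sterols, 1 stood at least 1.5-fold lower in sub-clusters 1, 2 and 5, where 2.31% of all genes compared did. Pltp, which transfers phospholipids between lipoproteins, stood at 69.6 and 38.7 CPM in sub-clusters 1, 2 and 5, a ratio of -0.85 (-1.31 to -0.39), and at 45.4 and 46.7 CPM in sub-cluster 1. The top barcodes held 27.4% and 4.48% of the Pltp UMIs in sub-clusters 1, 2 and 5, so this ratio rests in part on 1 vehicle barcode. Insig1, which holds SREBP2 in the endoplasmic reticulum and is itself induced by SREBP, stood at 166 and 122 CPM in sub-cluster 5, a ratio of -0.44 (-0.85 to -0.03), and at 49.9 and 43.0 CPM in sub-cluster 1, a ratio of -0.21 (-0.94 to 0.52). Apoe stood at 6261 and 5737 CPM in sub-clusters 1, 2 and 5, a ratio of -0.13 (-0.17 to -0.09), while it was 0.18 (0.16 to 0.19) in the other kept barcodes. Abca1, the lipid exporter, stood at 253 and 244 CPM, a ratio of -0.05 (-0.26 to 0.15). In the list of sterol control and lipoprotein transport 6 of 15 genes compared were higher in sub-clusters 1, 2 and 5 (47% of all genes compared, median -0.06).

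Among genes of fatty acid handling, 2 stood at least 1.5-fold lower in sub-clusters 1, 2 and 5, where 2.31% of all genes compared were. They were Fabp7 and Dbi, and Dbi passed only with 1 vehicle barcode included. Dbi, the acyl-CoA-binding protein, had 1018 CPM in vehicle and 576 CPM in fluconazole barcodes there, with a log2 ratio of -0.82 (-0.94 to -0.71). The vehicle barcode with the ependymal genes held 23.9% of the vehicle UMIs of Dbi. Without the top ependymal barcode of each library the levels were 786 and 570 CPM, less than 1.5-fold apart. In sub-cluster 5, where the top barcodes held 2.11% and 3.07% of the UMIs of their libraries, Dbi stood at 1596 and 1159 CPM, a ratio of -0.46 (-0.59 to -0.33). Fabp7, a fatty-acid-binding protein of radial glia and astrocytes, stood at 394 and 201 CPM in sub-cluster 5, a ratio of -0.97 (-1.26 to -0.68), and the other kept barcodes gave -1.40 (-1.58 to -1.21). In sub-cluster 1 Fabp7 had 9 and 18 UMIs, a ratio of 0.70 (-0.53 to 2.04) whose interval includes 0. Scd2, the brain's main stearoyl-CoA desaturase, stood at 549.7 and 419 CPM in sub-clusters 1, 2 and 5, a ratio of -0.39 (-0.54 to -0.25). Acsl3, an acyl-CoA synthetase, stood at 753 and 827 CPM, a ratio of 0.13 (0.02 to 0.25). Over the list 11 of 19 genes compared were lower (53% of all genes compared, median -0.04). Aldoc, the astrocyte aldolase of glycolysis, stood higher at 977 and 1202 CPM, a ratio of 0.30 (0.20 to 0.39), with -0.09 (-0.21 to 0.03) elsewhere, while 11 of 21 genes compared of glycolysis, glycogen and lactate were higher (47% of all genes compared, median 0.03).

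Glucocorticoid-induced genes stood higher in sub-cluster 5. Of the genes compared in sub-clusters 1, 2 and 5, 9 of 10 were higher in the fluconazole library, against 47% of all genes compared, with a median of 0.21. Only 1 passed 1.5-fold, against 0.834% of all genes compared. In sub-cluster 5, 6 of 7 were higher (47.2% of all genes compared), 1 of them, Hif3a, at least 1.5-fold (1.27%), with a median of 0.28. In sub-cluster 1, only 4 were compared and 1 was higher (49.9% of all genes compared, median -0.27). The other kept barcodes had 16 of 20 higher (50.2% of all genes compared there), with a median of 0.17. An unweighted mean of the ratios of sub-clusters 1, 2 and 5 put the list median at -0.17, so its direction depends on how the sub-clusters are weighted. The receptor itself, Nr3c1, stood at 215 and 206 CPM in sub-clusters 1, 2 and 5, a ratio of -0.06 (-0.28 to 0.16).

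Zbtb16, a zinc-finger transcription factor that glucocorticoids induce, was the gene past 1.5-fold in sub-clusters 1, 2 and 5. In sub-cluster 5, where it was under the minimum of 100 UMIs and is not in the count, it had 9 and 52 UMIs in 9 and 36 barcodes, 13.2 CPM in vehicle and 66.2 CPM in fluconazole barcodes, with a log2 ratio of 2.33 (1.29 to 3.53). In sub-cluster 1 it had 18 and 39 UMIs, 27.2 and 47.9 CPM, a ratio of 0.82 (-0.02 to 1.71). Hif3a, a hypoxia-inducible factor of the glucocorticoid list, had 87.9 and 178 CPM in sub-cluster 5, a ratio of 1.02 (0.57 to 1.48), against 172 and 140.1 CPM in sub-cluster 1, a ratio of -0.30 (-0.69 to 0.09). Fkbp5, the co-chaperone that dampens the receptor, had 3 and 15 UMIs in sub-cluster 5, a ratio of 2.12 (0.30 to 4.55), and was also under that minimum. Per1, a clock gene that glucocorticoids induce and likewise under it, stood at 27.8 and 52.2 CPM there, a ratio of 0.91 (0.09 to 1.77), and Klf9, a repressor induced by the receptor, at 212 and 281 CPM, a ratio of 0.40 (0.10 to 0.72). Cdkn1a, the cell-cycle inhibitor p21, had 3 and 37 UMIs, but 1 fluconazole barcode held 73.0% of them. Without the top barcode of each library, Zbtb16 gave 1.37 (0.77 to 2.01) in sub-clusters 1, 2 and 5 and Cdkn1a 1.16 (-0.0089 to 2.45). The metallothioneins Mt1 and Mt2 stood at 4539.6 and 4979 CPM and 744 and 865 CPM, ratios of 0.13 (0.06 to 0.20) and 0.22 (0.05 to 0.39). Dusp1, a phosphatase of MAP kinases in the same list, went the other way at 93.8 and 72.5 CPM, a ratio of -0.37 (-0.91 to 0.17). Hif3a, Per1, Klf9, Cdkn1a and the sub-cluster 5 values were singled out after they were seen.

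**Figure D4:**
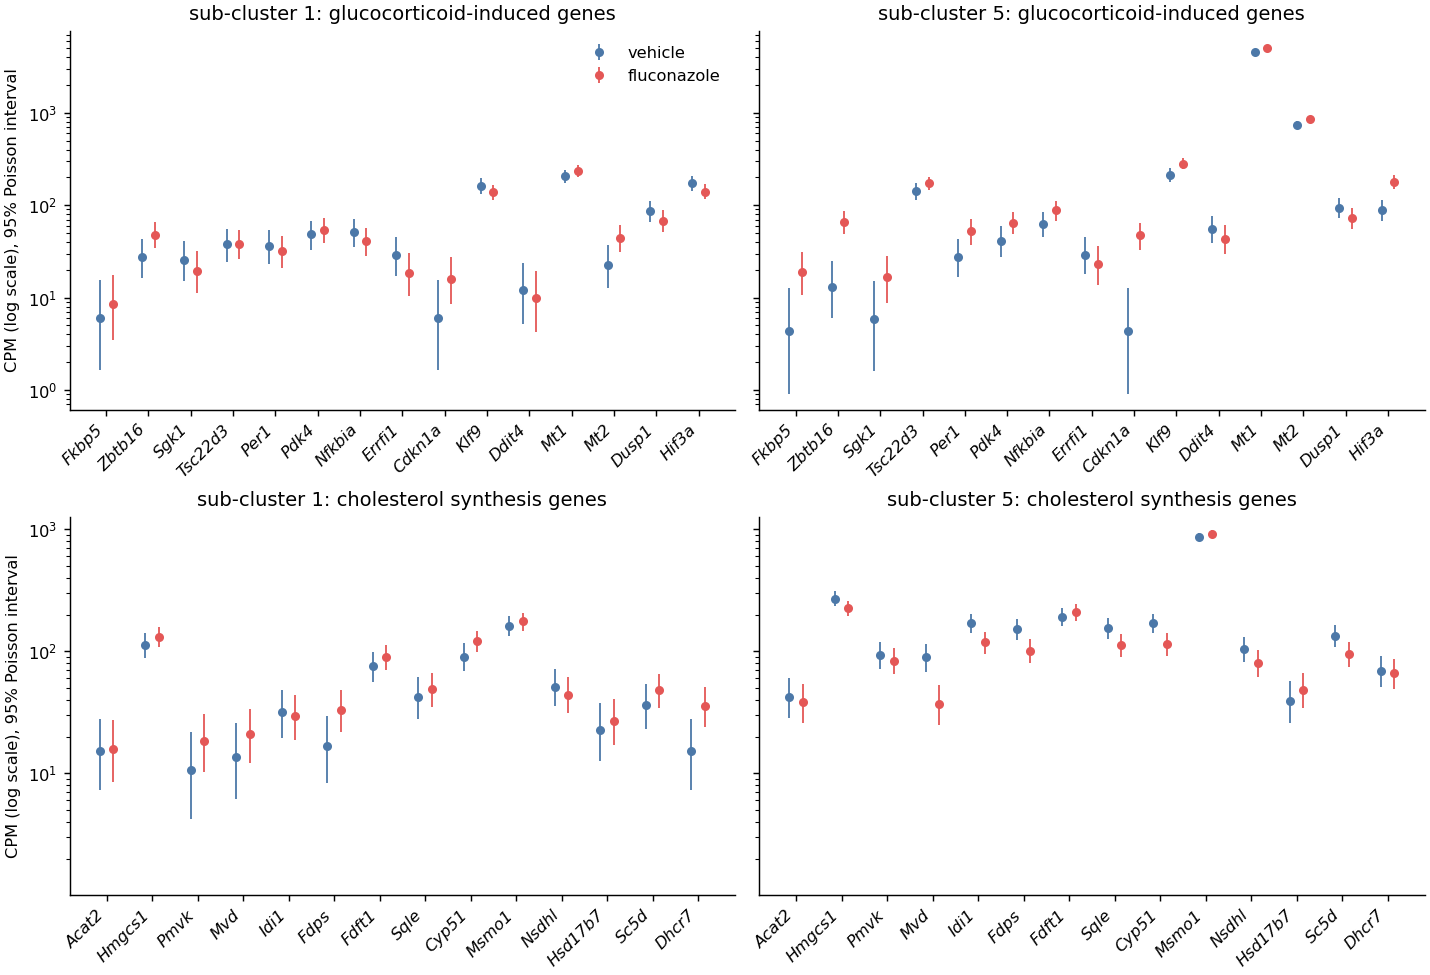
CPM (vertical axis, log scale) with exact 95% Poisson intervals for glucocorticoid-induced genes (top) and cholesterol synthesis genes (bottom), each with at least 100 UMIs over all astrocyte barcodes, in sub-cluster 1 (left) and sub-cluster 5 (right), vehicle blue and fluconazole red. Zbtb16 stands at 13.2 and 66.2 CPM in sub-cluster 5, and Mvd at 89.4 and 36.9 CPM.

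The letters GNACA and TGTNC with 3 bases between them, a palindrome of the kind the glucocorticoid receptor binds, were searched in the same windows on both strands and occurred in 127 of 32851 promoters (0.387%). They occurred in 3 of the 18 matched of 20 genes of the list, Sgk1, Mt1 and Map3k6, and the list was chosen from known targets, so the share is no finding. The windows of Mt1 (chr8:94178839-94179088, plus strand, match from 94 to 82 bases before the start) and Sgk1 (chr10:21993640-21993889, plus strand, match from 188 to 176) are shown with the match in capitals, because the palindrome can be read in both.
Mt1: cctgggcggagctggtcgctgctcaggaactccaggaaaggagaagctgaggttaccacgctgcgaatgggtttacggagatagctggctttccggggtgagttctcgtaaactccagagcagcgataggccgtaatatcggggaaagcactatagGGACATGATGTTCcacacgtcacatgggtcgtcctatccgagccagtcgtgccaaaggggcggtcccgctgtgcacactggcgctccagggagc
Sgk1: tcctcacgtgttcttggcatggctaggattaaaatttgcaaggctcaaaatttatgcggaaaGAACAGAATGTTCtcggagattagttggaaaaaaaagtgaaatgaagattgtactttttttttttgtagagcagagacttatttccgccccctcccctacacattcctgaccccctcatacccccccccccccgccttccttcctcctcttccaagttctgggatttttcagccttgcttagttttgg
Sgk1, a kinase that regulates ion transport, had 26 and 30 UMIs in sub-clusters 1, 2 and 5, a ratio of 0.02 (-0.79 to 0.84), and Map3k6 had too few UMIs to compare.

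IGF1 receptor transcripts stood slightly lower in the fluconazole library in sub-clusters 1, 2 and 5 and higher in the other kept barcodes. Igf1r stood at 261 CPM in vehicle and 221 CPM in fluconazole barcodes in sub-clusters 1, 2 and 5, with a log2 ratio of -0.24 (-0.45 to -0.03), with -0.39 (-0.78 to -0.01) in sub-cluster 5, -0.04 (-0.33 to 0.24) in sub-cluster 1 and -0.06 (-0.20 to 0.09) over all 1432 barcodes. All other kept barcodes stood at 572 and 721 CPM, a ratio of 0.33 (0.32 to 0.35). In classes picked by rules of the same kind, endothelial barcodes (3023 and 2763) gave 0.41 (0.38 to 0.43), oligodendrocytes (771 and 680) 0.04 (-0.08 to 0.17) and oligodendrocyte precursors (61 and 44) -0.08 (-0.63 to 0.47). The astrocyte interval does not overlap the endothelial one, but the difference between cell types could not be tested with 1 library each. Insr, the insulin receptor, stood at 137 and 124 CPM, a ratio of -0.14 (-0.42 to 0.14). Over the list of IGF1 receptor and insulin signalling, 10 of 19 genes compared were higher in sub-clusters 1, 2 and 5 (47% of all genes compared), with a median of 0.03. Raft scaffolds and sphingolipid enzymes had 8 of 10 genes compared lower, where 53% of all genes compared were, with a median of -0.08 and 0 past 1.5-fold, where 2.31% were lower by that amount. Prnp, the membrane-anchored prion protein, stood at 671 and 596 CPM, a ratio of -0.17 (-0.30 to -0.04).

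The FGF receptor and ERK feedback list leaned higher. The other kept barcodes had 13 of 17 of its genes higher (50.2% of all genes compared there, median 0.085). Sub-cluster 1 had 6 of 10 higher (49.9%, median 0.0081). Of its genes compared in sub-clusters 1, 2 and 5, 9 of 11 were higher, against 47% of all genes compared, with a median of 0.07 and 0 past 1.5-fold. Etv5, an ETS factor downstream of FGF, stood at 107 and 118 CPM, a ratio of 0.15 (-0.16 to 0.45), against 0.64 (0.57 to 0.71) in the other kept barcodes. Spred2, an inhibitor of the same pathway, stood at 154 and 192 CPM, a ratio of 0.32 (0.07 to 0.56). Fgfr3, the receptor most typical of astrocytes, stood at 301 and 299 CPM, a ratio of -0.01 (-0.20 to 0.17).

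Receptors of transmitters and growth factors stood lower in sub-cluster 5. There, 9 of 10 genes compared from the list were lower, against 52.8% of all genes compared, with a median of -0.23, while in sub-cluster 1, 6 of 10 were lower (50.1% of all genes compared, median -0.01) and in the other kept barcodes 14 of 18 were higher (50.2% of all genes compared there). Grm3, the group II metabotropic glutamate receptor of adult astrocytes, stood at 1943 and 1595 CPM in sub-cluster 5, a log2 ratio of -0.28 (-0.40 to -0.17), and at 2379.7 and 2523 CPM in sub-cluster 1, a ratio of 0.08 (-0.01 to 0.18). Ntrk2, whose truncated form in astrocytes binds BDNF, stood at 1136 and 903 CPM, a ratio of -0.33 (-0.48 to -0.18). Ednrb, the endothelin receptor, stood at 275 and 223 CPM, a ratio of -0.31 (-0.61 to -0.0026).

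Synapse-organising and matrix genes were split. Mertk, a receptor for engulfing synapses and debris, stood at 1125 and 1562 CPM in sub-cluster 5, a ratio of 0.47 (0.34 to 0.61), and at 1642 and 1486 CPM in sub-cluster 1, a ratio of -0.14 (-0.26 to -0.02). Sparc, a secreted protein that antagonises synapse formation, had 119.5 and 67.0 CPM in sub-clusters 1, 2 and 5, a ratio of -0.84 (-1.18 to -0.49). Its level was 885 and 786 CPM in the other barcodes, above that of the astrocytes, and a share of free RNA in its counts was not tested. Over the list, without 1 gene of the rule, 6 of 14 genes compared were higher (47% of all genes compared, median -0.019).

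Transcription factors and clock genes had list medians near 0 in sub-clusters 1, 2 and 5, and 3 of the 4 reactive genes compared stood lower. Of the astrocyte transcription factors with Notch and hedgehog genes, 9 of 25 were higher (47% of all genes compared, median -0.02), and Sox9 stood at 242 and 230.5 CPM, a ratio of -0.07 (-0.28 to 0.14). Id3, a target of BMP signals, stood at 166 and 218 CPM, a ratio of 0.39 (0.16 to 0.63). It was higher only in sub-cluster 5, at 267 and 397 CPM. It stood at 66.5 and 62.7 CPM in sub-cluster 1 and at 151 and 106 CPM in sub-cluster 2. Of the clock genes 9 of 15 were higher (47% of all genes compared, median 0.05), and in sub-cluster 1, 5 of 10 (49.9%, median -0.02). Over all 1432 barcodes 15 of 16 were higher (51.8% of all genes compared, median 0.16). The other kept barcodes likewise had 17 of 18 higher (50.2% of all genes compared there, median 0.10). Of the reactive astrocyte genes 4 had enough UMIs in sub-clusters 1, 2 and 5, with 1 higher and 3 lower (53% of all genes compared) and a median of -0.46. The 1 gene compared in sub-cluster 1 was higher. Over all 1432 barcodes 9 of 9 were lower (48.2% of all genes compared), 3 at least 1.5-fold (5.84%), with a median of -0.30. The list summed to 630 and 425 CPM there and to 2039 and 2035 CPM in the other kept barcodes. The part of RNA from other cells in these ratios was not tested. Gfap stood at 38.1 and 27.7 CPM in sub-clusters 1, 2 and 5 on 58 and 48 UMIs, a ratio of -0.46 (-1.04 to 0.12). Lcn2, Serpina3n and Cxcl10 did not reach 100 UMIs. The remaining metabolic lists had medians of -0.037 without the rule gene for serine synthesis and one-carbon units and 0.03 for glutathione and antioxidant defence, and the interferon list 0.09 over 3 genes.

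Immediate early, heat shock and ribosomal protein genes stood lower together. Over all astrocyte barcodes 17 of 17 immediate early genes compared were lower (48.2% of all genes compared) with a median of -0.81, and 15 were at least 1.5-fold lower (5.84%). In sub-clusters 1, 2 and 5, 12 of 13 were lower (53% of all genes compared) with a median of -0.35. Jund, a subunit of the AP-1 factor, stood at 199 and 133 CPM in sub-clusters 1, 2 and 5, a ratio of -0.58 (-0.84 to -0.33), and Fos, its partner, at 186 and 146 CPM, a ratio of -0.35 (-0.60 to -0.10). In the other kept barcodes Fos stood at 2280.4 and 2143 CPM and the list at a median of 0.01. Heat shock genes had 8 of 8 lower in sub-clusters 1, 2 and 5 (53% of all genes compared, median -0.26). In sub-cluster 1 only 2 were compared, 1 higher and 1 lower. The other kept barcodes had 13 of 13 heat shock genes lower (49.8%, median -0.23). Cytosolic ribosomal proteins had 78 of 80 lower in sub-clusters 1, 2 and 5 (53% of all genes compared, median -0.29). Their medians were -0.45 in sub-cluster 1 and -0.11 in sub-cluster 5. The other kept barcodes had 73 of 80 of them lower (49.8% of all genes compared there, median -0.10). Microglial genes stood lower beside these lists. In sub-clusters 1, 2 and 5 all 7 summed microglial markers were above 0 and came to 478 and 337 CPM, and C1qb alone to 90.6 and 42.2 CPM. If all C1q UMIs were free RNA, its share would be 9.75% in vehicle and 5.77% in fluconazole astrocytes. These astrocytes include sub-cluster 6, with microglial genes at 3394 and 1527 summed CPM, and its part in the 2 shares was not tested. With free RNA subtracted, the median of immediate early genes over all astrocyte barcodes went from -0.81 to -0.90. That of heat shock genes went from -0.34 to -0.21. The part of free RNA in the ratios of sub-clusters 1, 2 and 5 was not tested.

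Other named genes of sub-clusters 1, 2 and 5 had ratios of moderate size. Lama3, a laminin chain, stood at 202 CPM in vehicle and 287 CPM in fluconazole barcodes, with a log2 ratio of 0.51 (0.30 to 0.71), with 0.52 (0.25 to 0.80) in sub-cluster 1, 0.28 (-0.08 to 0.64) in sub-cluster 5 and -0.12 (-0.25 to 0.02) elsewhere. Slc25a33, a mitochondrial carrier of pyrimidine nucleotides, stood at 55.8 and 88.4 CPM, a ratio of 0.66 (0.27 to 1.06). Srr, the serine racemase that makes D-serine, stood at 63.1 and 94.7 CPM, a ratio of 0.59 (0.22 to 0.97). Luzp2, a leucine zipper protein, stood at 3913 and 4675 CPM, a ratio of 0.26 (0.21 to 0.31). The others on the higher side were Mettl15, Lrrc58, Alpk1, Malat1, Frmd4a, Mfhas1 and Rab11fip2, with ratios from 0.22 to 0.70. All 12 had the same sign in sub-clusters 1 and 5, which the choice of genes over both favours. Malat1, a nuclear RNA, was also higher in the other kept barcodes, 0.16 (0.16 to 0.17).

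On the lower side, Shisa9, an auxiliary protein of AMPA receptors, stood at 199 CPM in vehicle and 125 CPM in fluconazole barcodes, with a log2 ratio of -0.67 (-0.93 to -0.41), with 0.14 (0.09 to 0.18) in the other kept barcodes. Tspan12, a tetraspanin, stood at 85.4 and 52.6 CPM, a ratio of -0.70 (-1.10 to -0.30), and Hspa4l, a member of the Hsp110 chaperones, at 97.9 and 62.4 CPM, a ratio of -0.65 (-1.02 to -0.28). Plce1, a phospholipase, had a ratio of -1.03 (-1.67 to -0.41) in sub-cluster 5 and 0.10 (-0.45 to 0.66) in sub-cluster 1. Beside Tmem267, the lower side also held Slc6a11, Scd2, Gpr19, Pitpnm2, Hs3st3a1 and Abcd3, with ratios from -0.62 to -0.39. Of the 12 lower genes 10 had the same sign in sub-clusters 1 and 5.

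**Figure D5:**
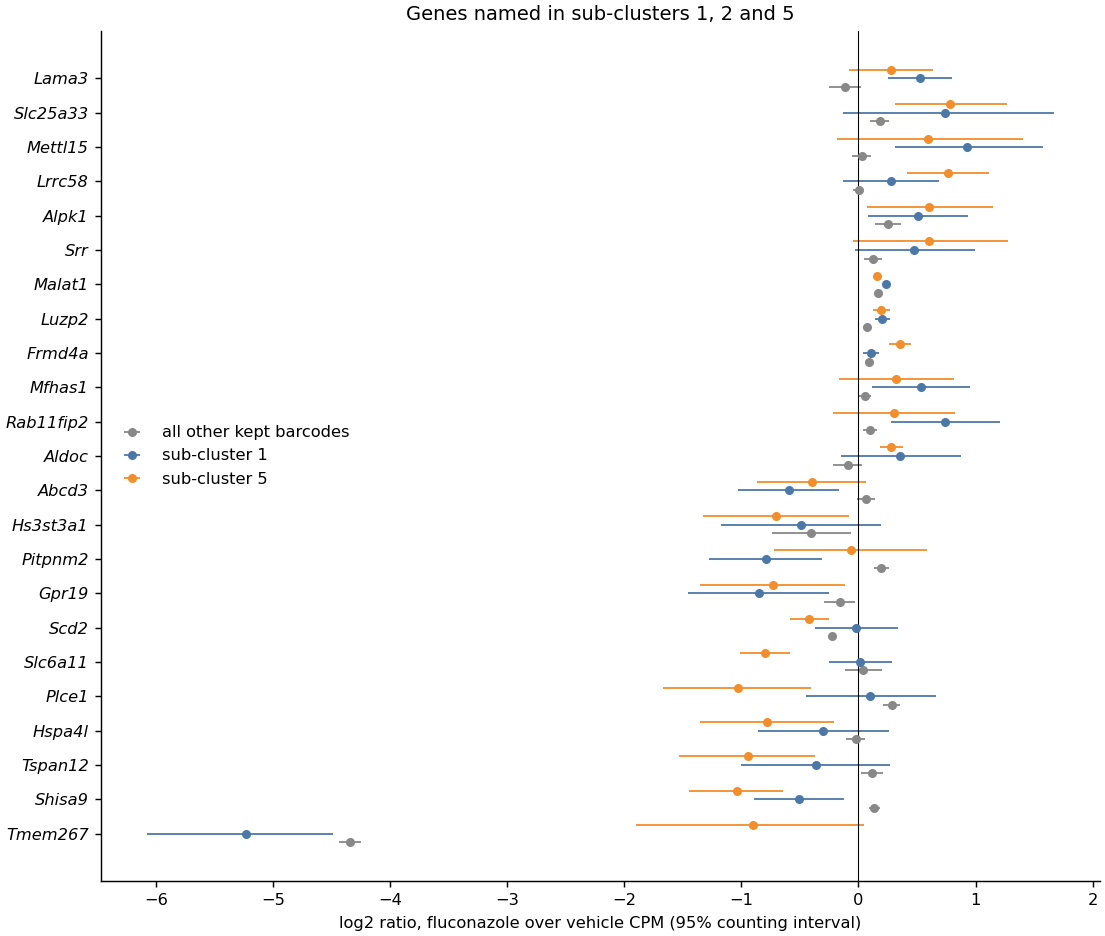
Log2 ratio of fluconazole over vehicle CPM (horizontal axis) with 95% counting intervals for 23 genes named in sub-clusters 1, 2 and 5 (vertical axis), in sub-cluster 1 (blue), sub-cluster 5 (orange) and all other kept barcodes (grey). Tmem267 stands at -5.23 in sub-cluster 1 and -0.90 in sub-cluster 5, and Lama3 at 0.52 and 0.28 with -0.12 in the other barcodes.

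Tmem267, a transmembrane protein of little-known function, had the lowest ratio of the named genes, in astrocytes and elsewhere. It had 609 and 31 UMIs in sub-clusters 1, 2 and 5, a log2 ratio of -4.48 (-5.05 to -3.96). In sub-cluster 1 it stood at 691 and 18.4 CPM, a ratio of -5.23 (-6.08 to -4.49), and in sub-cluster 5 at 38.1 and 20.4 CPM, a ratio of -0.90 (-1.90 to 0.05). The other kept barcodes stood at 270.4 and 13.3 CPM, a ratio of -4.34 (-4.44 to -4.25), and oligodendrocytes, precursors and endothelial barcodes gave -3.32, -2.78 and -2.74. Sub-cluster 2 stood at 705 and 0 CPM. The ratio was below 0 in every class named here, with an interval that includes 0 in sub-cluster 5, whose vehicle level was the lowest of the 3 sub-clusters.

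Genes typical of other cells gave further large ratios in sub-clusters 1, 2 and 5. Erbb4, a neuregulin receptor of interneurons, had 165 and 71 UMIs, a log2 ratio of -1.40 (-1.82 to -0.99), and Grin2b, an NMDA receptor subunit, 226 and 389 UMIs, a ratio of 0.60 (0.36 to 0.84). Among genes below the level of the other barcodes, Kcnq3, Rnf169, Svil and Lrrc8c were also named on the higher side, from 0.45 to 0.61, and Cd9, C1qb, Sparc and Tmsb4x on the lower side, from -1.19 to -0.59. The glutamatergic neuron markers summed to 62.4 and 42.7 CPM in sub-clusters 1, 2 and 5, with none of the 5 at 0. Hbb-bs, a haemoglobin chain, had 1912 and 325 UMIs, a ratio of -2.74 (-2.92 to -2.57), and 1 barcode held 50.7% of the vehicle UMIs and 1 barcode 38.2% of the fluconazole UMIs. The 5 blood markers summed to 2413 and 347 CPM in sub-clusters 1, 2 and 5 and to 1972 and 1352 CPM in the other kept barcodes, none at 0. Crym, which binds thyroid hormone, had 126 and 33 UMIs in 16 and 5 barcodes of sub-cluster 5, a ratio of -2.14 (-2.74 to -1.57), and was named after its values were seen. The part of neuronal or blood RNA in these ratios was not tested.

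Beside other glia and endothelial barcodes, some ratios of the astrocytes had the same sign and others did not. Zbtb16 gave 1.34 (0.76 to 1.96) in sub-clusters 1, 2 and 5, 1.55 (1.35 to 1.75) in oligodendrocytes, 1.65 (1.52 to 1.77) in endothelial barcodes and 1.22 (0.04 to 2.49) in precursors. Fkbp5 gave 1.59 (0.33 to 3.05), 1.00 (0.55 to 1.46), 0.63 (0.30 to 0.96) and -0.22 (-1.85 to 1.32) in the same order. Cyp51 gave -0.11 (-0.40 to 0.19) in the astrocytes, -0.30 (-0.48 to -0.11) in oligodendrocytes and -0.06 (-0.33 to 0.20) in endothelial barcodes. Lama3 gave -0.52 (-0.75 to -0.30) in endothelial barcodes, opposite in sign to the astrocytes. All of these comparisons use the same 2 libraries, so they are not independent, and none of the differences was tested.

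Variation among the barcodes of a library was large for haemoglobin and for some abundant astrocyte genes. With each barcode thinned to 1000 UMIs, the variance over the mean across barcodes of sub-clusters 1, 2 and 5 had a median of 1.09 in both libraries over 1735 genes with a mean of at least 0.1, where 1 is the value of pure counting. Hbb-bs reached 228 in vehicle and 26.5 in fluconazole. Apoe reached 12.5 and 13.9, Cst3, a secreted protease inhibitor, 10.5 and 9.51, and Mt1 5.14 and 6.22. Apoe and Mt1 also stood far apart between sub-clusters 1 and 5, and all of these barcodes share a library and its depth. Luzp2 reached 2.78 and 2.79, and the mitochondrial gene mt-Atp6 4.31 and 4.07.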

How the data were processed

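Single-barcode RNA data of 2 libraries were analysed, 1 library per treatment, as the authors' deposited filtered matrices of raw UMI counts (27561 barcodes, 33696 gene rows). Cell Ranger 8.0.1 made them per the file headers, whereas the submitters' processing notes name Cell Ranger 9.0.0, mm10, R 4.0.3 and Seurat 4.0.0. Intronic counting and read strand are not given in the sources used here. The members and gene lists were chosen with earlier results of these data known.

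Barcodes were kept at 500 or more genes and at most 5% mitochondrial UMIs, and members were picked by the marker rule. No doublets were removed, and Scrublet (expected rate 8%) marked 22 vehicle and 10 fluconazole members (2.76% and 1.57%). Members were clustered without the rule's genes (1000 variable genes per library, 20 principal components, 15 neighbours, Leiden resolution 0.5). UMIs were summed per library and divided by the total (CPM). Log2 ratios carry exact conditional binomial 95% intervals, CPM exact Poisson and shares Clopper-Pearson intervals. They cover counting error only, since barcodes are not replicates, and no test was run. List counts in the text leave out the rule's genes where a list holds any, and the plot of list medians includes them. Genes were compared from 100 UMIs over both libraries in the population named, apart from single genes given with fewer UMIs.

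Named genes needed 200 UMIs, a CPM at or above that of the other barcodes in both libraries and no barcode with over 10% of the UMIs of the higher library. The 12 higher and 12 lower whose interval bound nearest 0 lay farthest from 0 were named, then 5 and 5 by the same order among genes below the other barcodes. Lists gave up to 3 genes per direction and the 2 of highest CPM, with the rule's genes, Igf1r, Cyp51, Shank3, Tmem267, Gfap, Nr3c1 and the 15 genes of highest dispersion. The same order in sub-clusters 1, 2 and 5 was added after seeing the data, and genes given with sub-cluster values outside the rule were chosen after their values were seen. Alternatives changed the marker minimum, other-type UMIs, doublets, mitochondrial limit, depth, scaling, free RNA, weighting and UMI minimum. The ratio calculation was tested on simulated data. Tools were Python 3.11.15, scanpy 1.11.5, leidenalg 0.10.2, igraph 0.11.9, numpy 2.4.6, scipy 1.17.1, pandas 2.3.3, scikit-learn 1.9.0 and matplotlib 3.10.9. Some genes that the rules name are not reported here, although the counts and medians of lists include them.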

Additional observations from a re-analysis of the deposited data

Results flagged for a closer look

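For 4 of the genes looked at, the counting intervals of the log2 ratio in sub-clusters 1 and 5 lay on opposite sides of 0. The difference between the sub-clusters was not tested. The share of such genes over all genes compared is not given here, so the count of 4 is not read as a result. Mertk, the engulfment receptor, had -0.14 in sub-cluster 1 and 0.47 in sub-cluster 5. Rora, a nuclear receptor of the clock, had -0.15 in sub-cluster 1 and 0.10 in sub-cluster 5. The mitochondrial genes mt-Atp6 and mt-Co3 went the other way, mt-Atp6 with 0.26 in sub-cluster 1 and -0.14 in sub-cluster 5 and mt-Co3 with 0.31 and -0.079. The median mitochondrial share of UMIs was 0.44% and 0.45% in sub-cluster 1 and 2.6% and 2.52% in sub-cluster 5, in the vehicle and the fluconazole library.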

How the results depend on the processing

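The alternatives below changed a value over all 1432 astrocyte barcodes by more than its counting or rank interval, and the cause was not tested. The values they replace are a ratio of shares of 0.969, the counts of genes at least 1.5-fold higher (112) and of genes at least 1.5-fold lower (487), and the list medians of the report, among them 0.12 for cholesterol synthesis, 0.29 for glucocorticoid-induced genes and -0.81 for immediate early genes. The number of genes compared can differ between settings, so the counts are not shares. Over all astrocyte barcodes 1.34% of 8343 genes were higher and 5.84% lower. The shares were 1.54% and 2% of 2795 genes in sub-cluster 1 and 1.27% and 2.24% of 2906 in sub-cluster 5. They were 0.834% and 2.31% of 5878 genes in sub-clusters 1, 2 and 5. With a minimum of 20 UMIs, 664 genes stood at least 1.5-fold higher and 1543 lower, and the list median was -0.60 for interferon response. With a minimum of 300 UMIs, 13 genes stood at least 1.5-fold higher and 204 lower. With at least 6 of the 8 marker genes, 64 genes stood at least 1.5-fold higher and 273 lower and the ratio of astrocyte shares was 1.14, and the list medians were -0.15 for cholesterol synthesis, -0.067 for sterol control, -0.045 for fatty acid genes, 0.13 for FGF and ERK genes and -0.020 for transcription factors. With at most 1% mitochondrial UMIs, 282 genes stood at least 1.5-fold lower, and the list medians were 0.23 for ion handling, 0.37 for cholesterol synthesis, 0.21 for sterol control, 0.12 for raft genes, 0.045 for clock genes, -0.42 for immediate early genes and -0.30 for ribosomal proteins. The reversed ratios were 0.69 for Fabp7 and 0.086 for Slc6a9. With free RNA subtracted, the list medians were -0.90 for immediate early genes, -0.21 for heat shock genes and -0.39 for ribosomal proteins. With no UMI of the 8 genes of other cell types, 319 genes stood at least 1.5-fold lower, and the list median was -0.21 for heat shock genes. In sub-cluster 1, 43 genes stood at least 1.5-fold higher and 56 lower, and the list medians were -0.0012 for fatty acid genes, 0.24 for raft genes, -0.12 for IGF1 receptor signalling, 0.0081 for FGF and ERK genes, -0.27 for glucocorticoid-induced genes, -0.023 for clock genes, -0.33 for immediate early genes, 0.028 for synapse and matrix genes, 0.025 for transcription factors and 0.37 for mitochondrial genes. The reversed ratios were -0.044 for Eya1, 0.70 for Fabp7, 0.87 for Phlda1, 0.043 for Pltp, 0.87 for Slc6a9 and 0.024 for Sphkap. In sub-cluster 5, 37 genes stood at least 1.5-fold higher and 65 lower, and the list medians were -0.15 for ion handling, -0.42 for cholesterol synthesis, -0.084 for sterol control, -0.16 for fatty acid genes, 0.060 for FGF and ERK genes, -0.25 for immediate early genes, -0.21 for heat shock genes, -0.026 for synapse and matrix genes, -0.23 for transmitter receptors, -0.022 for transcription factors and -0.11 for ribosomal proteins. The reversed ratios were 3.60 for Cpne4, 0.16 for Hspb1, 0.80 for Klf4 and 0.28 for Srgn. In sub-clusters 1, 2 and 5, 49 genes stood at least 1.5-fold higher and 136 lower and the ratio of astrocyte shares was 1.09, and the list medians were -0.11 for cholesterol synthesis, -0.061 for sterol control, -0.036 for fatty acid genes, 0.069 for FGF and ERK genes, 0.050 for clock genes, -0.35 for immediate early genes, -0.012 for synapse and matrix genes, -0.020 for transcription factors, -0.037 for serine synthesis and -0.29 for ribosomal proteins. The reversed ratio was 0.48 for Cpne4. With barcodes thinned to 1000 UMIs, 38 genes stood at least 1.5-fold higher and 108 lower, and the list medians were -0.076 for sterol control, 0.0023 for fatty acid genes, 0.012 for clock genes, -0.53 for immediate early genes, 0.055 for synapse and matrix genes, 0.011 for transcription factors and -0.095 for serine synthesis. The reversed ratio was 0.40 for Errfi1. With the unweighted mean over sub-clusters 1, 2 and 5, 308 genes stood at least 1.5-fold higher, and the list medians were -0.12 for fatty acid genes, -0.17 for glucocorticoid-induced genes, -0.087 for clock genes, -0.30 for immediate early genes, -0.066 for transcription factors, -0.068 for serine synthesis, -0.38 for antioxidant genes, -0.59 for ribosomal proteins and -0.14 for mitochondrial genes. The reversed ratios were 0.57 for Cpne4, 0.45 for Fabp7 and 0.12 for Klf4. The settings by sub-cluster were chosen after seeing the data. Scaling by the median of ratios shifted all log2 ratios by 0.012. Over the alternatives run, 223 list medians stayed within their interval and 64 did not, and 1391 single-gene ratios stayed within theirs, 893 left it without a reversal and 17 reversed. Few UMIs per gene widen the counting intervals, and no interval covers variation between mice. No paired analysis was possible because each treatment has 1 library and the labels give no shared replicate numbers, and for the same reason no library could be left out.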
